A study of Mus musculus with 35 samples.

Results

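The 77 genes described here encode proteins of the mitochondrial ribosome, and their levels were read in the lungs of ventilated and non-ventilated mice. They were chosen by symbol alone: every gene named Mrpl or Mrps followed by a number, with or without a final letter, was taken where a probe set of the array carried that symbol and no other. This gave 77 of the 19938 genes measured, 50 of the large subunit, 26 of the small subunit and Mrps36. RefSeq lists 78 such symbols in the mouse. The missing symbol, Mrpl53, shares its probe set with another gene.

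Mitochondria carry ribosomes of their own, which translate only the few messenger RNAs of the mitochondrial genome, all for proteins of oxidative phosphorylation. The ribosomal RNAs of these particles come from mitochondrial DNA, whereas every protein of them is encoded in the nucleus, made in the cytosol and imported. Many of the proteins descend from bacterial ribosomal proteins, and others are additions found only in mitochondria. Assembly needs a set of GTPases, helicases and RNA-modifying enzymes. In the lung, surfactant-making alveolar type 2 cells are known for their many mitochondria.

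The study set hypercapnia, a raised level of CO2, against normal CO2 during gentle and injurious mechanical ventilation, with 1 Affymetrix array per animal on RNA of lavaged, frozen whole lung. All mice were adult males of the inbred strain C57BL/6J. High stretch hypercapnia (10 mice) meant 3 h of ventilation with tidal volumes of 35 to 40 mL/kg that peaked at 27 cmH2O, no end-expiratory pressure (0 cmH2O), a rate of 30 to 35 per minute, an inspired oxygen fraction of 0.75 and an inspired CO2 fraction of 0.12. High stretch normocapnia (10 mice) had the same settings and no CO2. Low stretch hypercapnia (5 mice) meant 3 h at 10 mL/kg with 2.0 cmH2O at the end of expiration and 135 breaths per minute, in room air with a CO2 fraction of 0.12, low stretch normocapnia (5 mice) the same without CO2, and non-ventilated mice (5) breathed room air by themselves. High and low stretch therefore differ in volume, end-expiratory pressure, rate and oxygen, and these cannot be told apart. All values are RMA signals on the log2 scale. Array medians lay between 6.96 and 7.05, and each array correlated on average at 0.981 to 0.992 with the others. The lung markers Sftpc (13.9 to 14.1) and Sftpb (12.9 to 13.1), both of surfactant, and the endothelial Cdh5 (11.7 to 12.1) were high on all 35 arrays. Of the 8 members with more than 1 probe set, the brighter probe set was used. A gene passed in a comparison at a limma p under 0.05 after Benjamini-Hochberg adjustment over all 19938 genes.

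The members gave signals that averaged from 6.27 for Mrps36 to 9.99 for Mrpl24 over the 35 arrays. Mrpl24 and Mrpl18 are homologues of bacterial large subunit proteins, and Mrpl39 has a domain like that of threonyl-tRNA synthetase. These 3 gave the brightest signals, with Mrpl39 at 9.94 and Mrpl18 at 9.78. The dimmest were Mrpl22 at 6.76, Mrpl42 at 6.68 and Mrps36, which has since been assigned to the 2-oxoglutarate dehydrogenase complex. Signals of different probe sets do not rank the abundance of the RNAs.

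A few members were higher with high stretch, and most did not pass. Of the 77 genes, 7 rose in high stretch normocapnia against low stretch normocapnia (9.09%) and none fell, while 8.72% of all genes rose and 9.56% fell. The rises belonged to Mrps18b, Mrpl17, Mrpl54, Mrps7, Mrps18a, Mrpl20 and Mrpl38, from 1.11-fold to 1.38-fold. The median change was 0.04 over the members and -0.02 over all genes. In hypercapnia 4 members rose with high stretch (5.19%) and none fell, while 5.43% of all genes rose and 4.69% fell. These 4 were Mrpl17, Mrps18b, Mrpl54 and Mrpl20, all among the 7 that rose in normocapnia. Of all genes, 2017 passed in hypercapnia in either direction, and 1571 of these (77.9%) passed the same way in normocapnia. The 2 comparisons share no array, but both use the same estimate of each gene's spread. In normocapnia the groups did not overlap for 2 members, Mrpl17 and Mrps18a, as for 3.73% of all genes in the higher direction. In hypercapnia this held for 2 members, Mrpl17 and Mrps18b, and for 1.84% of all genes.

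The promoters of the 3 of these 4 genes that have a window in the RefSeq table are shown because the genes rose in both comparisons. That of Mrpl3 is shown as an example of the members that fell with CO2, described further on. The windows of the others that fell are not printed, and their matches are given below. Each window runs from 250 bases before the start of transcription to 50 after it, in RefSeq coordinates of mouse build GRCm38.p6, and is printed 5′ to 3′ on the gene's own strand. Capitals mark exact matches, on either strand, to GCGCATG (part of the site of NRF1, nuclear respiratory factor 1), CCGGAAG (the core bound by ETS factors such as GABP), CACGTG (an E-box, bound by Myc among others) or CCAAT (the box bound by NF-Y). The windows are Mrps18b at chr17:35916391-35916690 (minus strand), Mrpl17 at chr7:105811038-105811337 (minus strand), Mrpl20 at chr4:155802628-155802927 (plus strand) and Mrpl3 at chr9:105053018-105053317 (plus strand).
Mrps18b: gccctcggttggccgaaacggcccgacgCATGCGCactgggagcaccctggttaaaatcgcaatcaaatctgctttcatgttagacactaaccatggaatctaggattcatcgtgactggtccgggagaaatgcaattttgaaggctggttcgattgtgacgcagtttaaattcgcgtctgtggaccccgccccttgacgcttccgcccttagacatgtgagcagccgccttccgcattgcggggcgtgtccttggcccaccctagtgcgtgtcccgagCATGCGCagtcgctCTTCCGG
Mrpl17: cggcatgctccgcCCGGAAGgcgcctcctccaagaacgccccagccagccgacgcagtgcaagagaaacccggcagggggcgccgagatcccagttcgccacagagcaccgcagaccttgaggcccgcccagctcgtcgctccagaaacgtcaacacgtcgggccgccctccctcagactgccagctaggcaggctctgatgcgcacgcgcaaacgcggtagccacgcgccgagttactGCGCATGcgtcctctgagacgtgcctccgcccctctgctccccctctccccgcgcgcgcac
Mrpl20: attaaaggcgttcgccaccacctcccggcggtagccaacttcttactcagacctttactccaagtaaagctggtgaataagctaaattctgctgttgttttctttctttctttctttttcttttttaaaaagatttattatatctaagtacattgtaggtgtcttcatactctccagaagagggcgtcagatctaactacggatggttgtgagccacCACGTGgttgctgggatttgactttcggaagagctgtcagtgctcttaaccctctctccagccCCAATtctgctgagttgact
Mrpl3: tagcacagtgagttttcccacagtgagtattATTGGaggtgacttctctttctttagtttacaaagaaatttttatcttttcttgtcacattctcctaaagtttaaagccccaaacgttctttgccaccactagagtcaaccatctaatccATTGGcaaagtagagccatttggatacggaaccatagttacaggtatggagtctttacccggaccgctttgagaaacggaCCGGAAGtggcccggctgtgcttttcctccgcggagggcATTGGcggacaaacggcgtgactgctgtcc

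Mrps18b held 2 matches to GCGCATG and 1 to CCGGAAG, and Mrpl17 held 1 of each. Mrpl20 held 1 E-box and 1 CCAAT box, and Mrpl3 held 1 match to CCGGAAG and 3 CCAAT boxes. Of the members, 68 had windows in the table, 74 windows in all. CCGGAAG stood in 33.8% of the members' windows, against 8.86% of all 32851 windows of the table. The share with GCGCATG was 10.8%, against 3.91%, and that with ATGGCGG, the core of the YY1 site, 16.2%, against 4.05%. CACGTG stood in 9.46%, against 7.15%, and CCAAT in 39.2%, against 37.4%. The 7 windows with CACGTG belong to 5 of the 68 members, as the 3 windows of Mrpl2 each hold it. The 29 windows with CCAAT belong to 26 members. None of these motifs contains another. Of the other members that fell with CO2, Mrpl44 held no match to any of these motifs. Mrpl10 held 2 matches to GCGCATG, and Mrps30 held 1 to ATGGCGG and 3 CCAAT boxes. A match is a run of letters and not a measured binding site, and the windows were not matched for base composition.

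Mrps18b and Mrps18a belong to the small and the large subunit although both, with Mrps18c, descend from the same bacterial small subunit protein. Mrps18b signals ran from 9.45 to 9.82 (median 9.59) in high stretch hypercapnia and from 9.48 to 9.84 (median 9.74) in high stretch normocapnia. The low stretch hypercapnia arrays read 9.26, 9.13, 9.35, 9.32 and 9.16, the low stretch normocapnia arrays 9.50, 9.08, 9.20, 9.07 and 9.45, and the non-ventilated arrays 9.16, 8.89, 9.17, 9.00 and 9.27. All 10 high stretch hypercapnia arrays lay above all 5 low stretch hypercapnia arrays, and 9 of the 10 high stretch normocapnia arrays above all 5 low stretch normocapnia arrays. The change was 0.46 ± 0.07 (SE, limma adjusted p = 1.72e-05, 1.38-fold) in normocapnia and 0.37 ± 0.07 (adjusted p = 0.000778) in hypercapnia. In the genome Mrps18b starts beside Ppp1r10, a regulatory subunit of a nuclear protein phosphatase that is read in the opposite direction. Ppp1r10 rose as well with high stretch, by 0.34 ± 0.06 in normocapnia (adjusted p = 0.000148) and by 0.39 ± 0.06 in hypercapnia (adjusted p = 4.41e-05), and by 0.55 ± 0.07 already in low stretch normocapnia against no ventilation (adjusted p = 1.23e-06), where Mrps18b differed by 0.16 (adjusted p = 0.248).

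Mrps18a averaged 8.53 ± 0.08 in high stretch normocapnia (SD, n = 10) and 8.32 ± 0.05 in low stretch normocapnia (SD, n = 5), and the groups did not overlap. Its change there was 0.20 ± 0.06 (adjusted p = 0.019), and 0.10 ± 0.06 in hypercapnia (adjusted p = 0.329). Mrps18c, the other small subunit form, differed by 0.10 ± 0.08 in both (adjusted p = 0.504 and 0.472). The differences between the 3 forms were not tested.

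Mrpl17, the homologue of bacterial L17, which lies near the exit of the peptide tunnel, gave the smallest p of the members in both stretch comparisons. Its signals ran from 8.57 to 8.87 (median 8.72) in high stretch hypercapnia and from 8.50 to 8.81 (median 8.76) in high stretch normocapnia. The 5 low stretch hypercapnia arrays read 8.26, 8.27, 8.36, 8.40 and 8.36, the 5 low stretch normocapnia arrays 8.39, 8.42, 8.43, 8.27 and 8.20, and the 5 non-ventilated arrays 8.39, 8.19, 8.32, 8.26 and 8.35. Every high stretch array lay above every other array. The change with high stretch was 0.39 ± 0.05 in normocapnia (SE, adjusted p = 2.65e-06) and 0.39 ± 0.05 in hypercapnia (adjusted p = 6.09e-06), 1.31-fold in each.

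Mrpl54, a large subunit protein with no bacterial homologue, ran from 7.53 to 7.94 (median 7.69) in high stretch hypercapnia and from 7.64 to 7.98 (median 7.87) in high stretch normocapnia. The low stretch hypercapnia arrays lay between 7.36 and 7.58 and the low stretch normocapnia arrays between 7.31 and 7.65, so that each pair of groups met at 1 array. Its change was 0.36 ± 0.07 in normocapnia (adjusted p = 0.000279) and 0.23 ± 0.07 in hypercapnia (adjusted p = 0.024). The call in hypercapnia was lost without low stretch hypercapnia replicate 3 or 4 (adjusted p up to 0.0928). Mrpl20, the homologue of a bacterial protein that binds early in assembly, averaged 8.31 ± 0.08 in high stretch hypercapnia and 8.13 ± 0.09 in low stretch hypercapnia (SD, n = 10 and 5). In normocapnia it averaged 8.35 ± 0.13 at high stretch and 8.19 ± 0.07 at low stretch (SD, n = 10 and 5), and these groups overlapped. Its changes of 0.18 ± 0.06 (hypercapnia, adjusted p = 0.0332) and 0.17 ± 0.06 (normocapnia, adjusted p = 0.0333) no longer passed in a fit of only the compared groups or with the replicate number as a block.

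Mrps7, the homologue of a protein that organises the head of the small subunit, averaged 9.12 ± 0.09 in high stretch normocapnia and 8.90 ± 0.17 in low stretch normocapnia (SD, n = 10 and 5). The groups overlapped, with 4 of the 10 high stretch arrays above all low stretch arrays, and the change was 0.21 ± 0.06 (SE, adjusted p = 0.00825). Mrpl38, a mitochondria-specific protein related to phosphatidylethanolamine-binding proteins, averaged 9.09 ± 0.08 in high stretch normocapnia and 8.93 ± 0.06 in low stretch normocapnia, a change of 0.16 ± 0.05 (adjusted p = 0.0259). Without low stretch normocapnia replicate 4, Mrps7, Mrps18a and Mrpl38 did not pass, and 4 members rose in place of 7. Mrpl38 also lost its call without low stretch normocapnia replicate 2 or 3 and with the replicate number as a block.

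**Figure D1:**
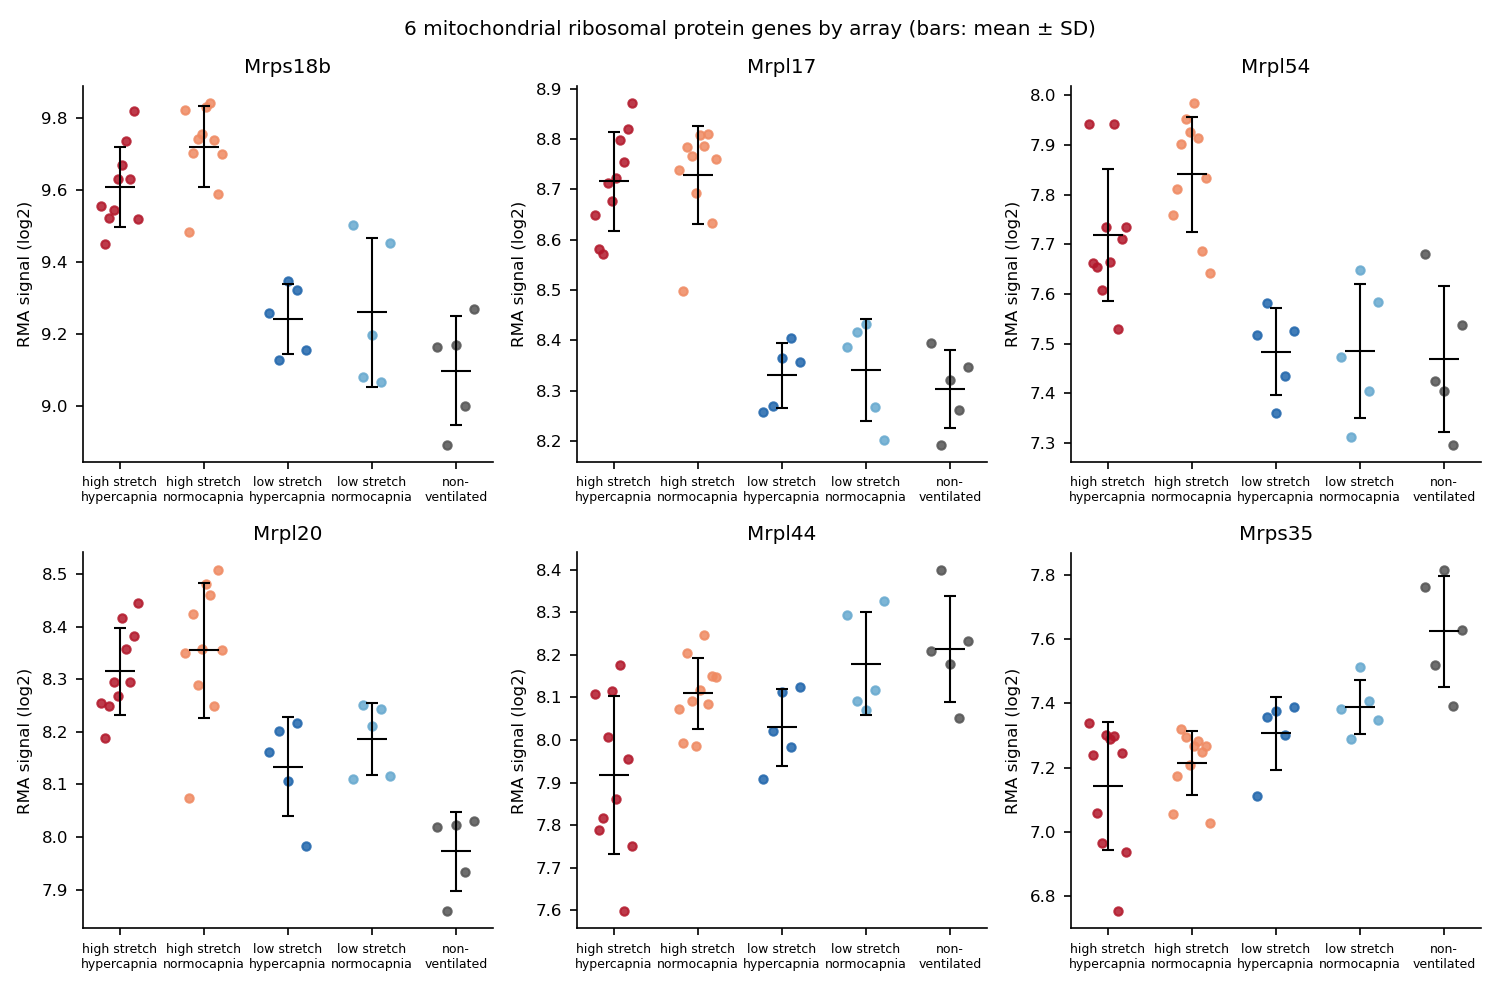
RMA signal (log2) of 6 members on each of the 35 arrays, by group, with bars for the mean ± SD. For Mrpl17 the 20 high stretch arrays, from 8.50 to 8.87, lie above all others, while Mrps35 is highest in non-ventilated lungs, with a mean of 7.62.

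Across the members the changes with high stretch in hypercapnia and in normocapnia ran together, with a correlation of 0.72 over the 77 genes and 0.78 over all 19938. The points share the arrays of each comparison and are not independent. The large subunit gave 5 rises among 50 genes in normocapnia and the small subunit 2 among 26, with medians of 0.06 and 0.03. In hypercapnia these were 3 and 1. All 4 counts lie near the shares of all genes that rose, 8.72% in normocapnia and 5.43% in hypercapnia. With the spread of each array (the SD of its signals) as a covariate the members' median was 0.01 in normocapnia and -0.02 in hypercapnia, so that the direction of the median in hypercapnia depended on this choice.

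Genes of the surrounding machinery moved in both directions with high stretch. Of 27 assembly factors of the mitochondrial ribosome, 2 rose and 5 fell in high stretch normocapnia against low stretch normocapnia. The rises were Mrm3, a methyltransferase for mitochondrial ribosomal RNA (0.45, adjusted p = 4.04e-05), and Rcc1l (0.22, adjusted p = 0.0038), and the falls included Tfb1m, the dimethyltransferase of the small subunit RNA (-0.34, adjusted p = 0.0143). Of 18 mitochondrial translation factors 1 rose, the recycling factor Mrrf (0.25, adjusted p = 0.0199), and 5 fell, among them Oxa1l, which inserts nascent proteins into the inner membrane (-0.24, adjusted p = 0.000699). Of 16 mitochondrial tRNA synthetases, Mars2 (0.32, adjusted p = 7.74e-05) and Yars2 (0.25, adjusted p = 0.00944) rose and Fars2 (-0.16, adjusted p = 0.049) fell.

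The regulators of mitochondrial transcription and biogenesis, 17 measured, gave 2 rises and 1 fall in the same comparison. Myc, a transcription factor that drives growth genes, rose 2.83-fold (adjusted p = 1.51e-09) and Pprc1, a coactivator of the PGC-1 family, by 0.79 ± 0.11 on the log2 scale (adjusted p = 2.39e-06), while Ssbp1, which binds single-stranded mitochondrial DNA, was lower by -0.22 (adjusted p = 0.029). Of 70 nuclear genes for subunits of the respiratory chain, Ndufb3 of complex I fell (-0.25, adjusted p = 0.0352) and none rose. The 4 mitoribosomal proteins measured under other symbols, Dap3, Ptcd3, Chchd1 and Gadd45gip1, differed by 0.01 to 0.17 and did not pass. None of the 13 messenger RNAs of the mitochondrial genome was measured by a probe set with 1 symbol.

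Most nucleolar factors, which assemble the cytosolic ribosome, were higher. Of 34 nucleolar factors 32 rose in high stretch normocapnia against low stretch normocapnia, with a median of 0.41, among them Rrp12 (0.73 ± 0.09, adjusted p = 1.06e-07) and Gnl3 (0.88 ± 0.12, adjusted p = 1.63e-06). In hypercapnia 23 of the 34 rose with high stretch. Of 55 cytosolic ribosomal proteins 4 rose in normocapnia, with Rpl12 first (0.85 ± 0.11, adjusted p = 5.49e-07), and none fell. The lists were known to move from earlier results of these data, and their counts are no independent evidence.

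**Figure D2:**
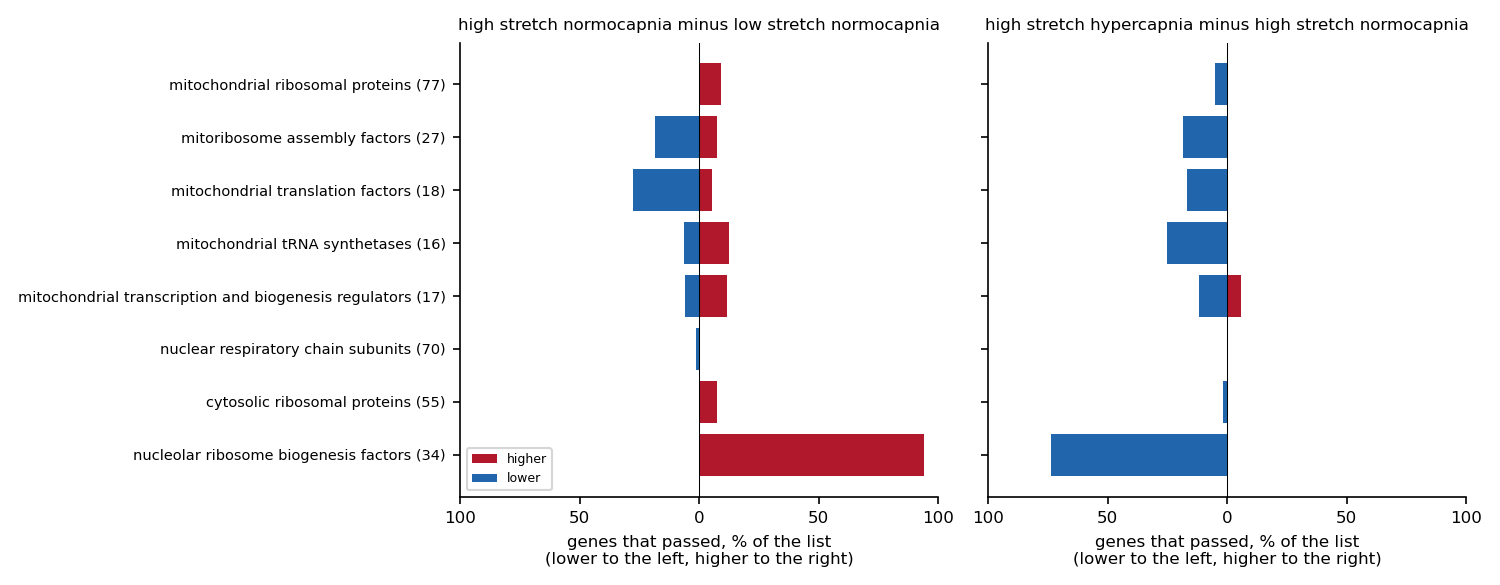
Share of each list (in % of its measured genes, number in brackets) that passed as higher (right) or lower (left) in high stretch normocapnia against low stretch normocapnia and in high stretch hypercapnia against high stretch normocapnia. The 34 nucleolar factors gave 32 rises in the first comparison and 25 falls in the second, and the 77 mitochondrial ribosomal proteins 7 rises and 4 falls.

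Marker genes of several cell types moved in the same comparison. In high stretch normocapnia against low stretch normocapnia 7 of 9 B cell markers rose, 3 of 12 cardiac muscle markers fell, and none of 15 neutrophil markers passed. The summed B cell signal (log2) ran from 10.21 to 10.73 in high stretch normocapnia and from 9.78 to 10.36 in low stretch normocapnia. The summed cardiac signal ran from 12.39 to 13.39 in high stretch normocapnia and from 12.98 to 13.43 in low stretch normocapnia. In high stretch hypercapnia against low stretch hypercapnia 5 of 9 B cell markers rose, with a summed signal of 10.01 to 10.55 and 9.58 to 10.11 in these groups. Their part in the rises of the members was not tested. In whole lung, fewer cells of a type and less RNA per cell cannot be told apart.

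Hypercapnia during high stretch was accompanied by slightly lower signals of most members. In high stretch hypercapnia against high stretch normocapnia 67 of 77 members (87%) were lower, against 53% of all genes, with a median of -0.08 over the members and -0.01 over all genes. The members share the arrays, so these are not 77 separate observations. Only 4 members passed, all as falls (5.19%), while 3.07% of all genes fell and 2.49% rose. At an unadjusted p under 0.05 there were 21 of the 77 members, all lower. Of all genes 17.5% reached that p, in either direction. The groups did not overlap for 0 members, and for 0.261% of all genes in the lower direction. The 95% interval of the change lay within 0.5 on the log2 scale, or 1.41-fold, for all 77.

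The 4 falls belonged to Mrpl44, Mrps30, Mrpl3 and Mrpl10, all of the large subunit. Mrpl44, which has a domain like that of ribonuclease III, ran from 7.60 to 8.18 (median 7.91) in high stretch hypercapnia and from 7.99 to 8.25 (median 8.10) in high stretch normocapnia. In 6 of 10 hypercapnic lungs it lay below every normocapnic lung, while the others overlapped. Its change was -0.19 ± 0.06 (SE, limma adjusted p = 0.0486), 1.14-fold lower.

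Mrps30 sits in the large subunit despite its name and has no bacterial homologue. It ran from 7.24 to 7.54 (median 7.37) in high stretch hypercapnia and from 7.31 to 7.65 (median 7.56) in high stretch normocapnia, a change of -0.16 ± 0.05 (adjusted p = 0.0459). Mrpl3, the homologue of a protein near the peptidyl transferase centre, ran from 8.49 to 8.81 (median 8.68) in high stretch hypercapnia and from 8.63 to 8.93 (median 8.83) in high stretch normocapnia, a change of -0.16 ± 0.05 (adjusted p = 0.0428). Mrpl10, the stalk base that carries the copies of Mrpl12, ran from 8.78 to 9.19 (median 8.96) in high stretch hypercapnia and from 8.94 to 9.21 (median 9.12) in high stretch normocapnia, a change of -0.14 ± 0.04 (adjusted p = 0.0499). For each of these 3, 3 or 4 of the 10 hypercapnic lungs lay below all normocapnic lungs and the rest overlapped with them. All 4 falls stood close to the threshold, and Mrpl44, Mrps30, Mrpl3 and Mrpl10 lost their call in 16, 17, 14 and 19 of 30 other fits.

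The lower signals were spread over both subunits. In high stretch hypercapnia against high stretch normocapnia, 43 of 50 large subunit members were lower, with a median of -0.08, and 24 of 26 small subunit members, with a median of -0.07. Members with a bacterial homologue had medians of -0.08 (30 genes of the large subunit) and -0.07 (16 of the small), and mitochondria-specific members -0.10 (19 genes) and -0.07 (9 genes).

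At low stretch no member passed with hypercapnia (limma), while 0.0401% of all genes rose and 0.0752% fell. In low stretch hypercapnia against low stretch normocapnia 57 of 77 members were lower (74%), against 47.6% of all genes, and the medians were -0.05 over the members and 0.01 over all genes. At an unadjusted p under 0.05 there were 11 of the 77 members, all lower. Of all genes 9.22% reached that p, in either direction. Mrpl37, a mitochondria-specific large subunit protein, had the smallest p, with 8.56, 8.78, 8.61, 8.82 and 8.80 in low stretch hypercapnia and 8.92, 8.81, 8.92, 8.86 and 8.91 in low stretch normocapnia. These groups met at 1 array, and the difference of -0.17 ± 0.06 did not pass (adjusted p = 0.331). Mrpl27, the homologue of a protein at the peptidyl transferase centre, read 8.20, 8.55, 8.31, 8.63 and 8.61 in low stretch hypercapnia and 8.68, 8.54, 8.90, 8.64 and 8.63 in low stretch normocapnia. Its difference of -0.22 ± 0.09 was not past the spread either (adjusted p = 0.408), and those of Mrpl39, Mrpl55 and Mrpl40 were -0.16, -0.15 and -0.17 (adjusted p = 0.385, 0.396 and 0.416).

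The CO2 differences at high and at low stretch come from separate arrays. They correlated at 0.39 over the 77 members and at 0.39 over all genes, and 53 members (68.8%) were lower in both, against 30.6% of all genes. These shares depend on those lower at high and at low stretch, 87% and 74% of the members and 53% and 47.6% of all genes. By themselves they do not measure agreement of the 2 comparisons. All members share the arrays of a comparison and are not independent in these values. Mrpl10 and Mrps30 were lower by -0.13 and -0.15 at low stretch, where their groups did not overlap, but did not pass there (adjusted p = 0.525 and 0.527). With Mrps25, named after its values were seen, they were the 3 members whose groups did not overlap, as was so, in the lower direction, for 1.08% of all genes. The test of a difference between the CO2 effects, the interaction of CO2 and stretch, called no member and no gene (0%). It gave an unadjusted p under 0.05 for 0 members, and for 4.48% of all genes. Mrps7, Mrpl12, Mrpl55, Mrpl19 and Mrpl32 had the smallest p (adjusted p = 0.997 each, with differences of -0.14, -0.18, 0.12, -0.18 and -0.19).

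**Figure D3:**
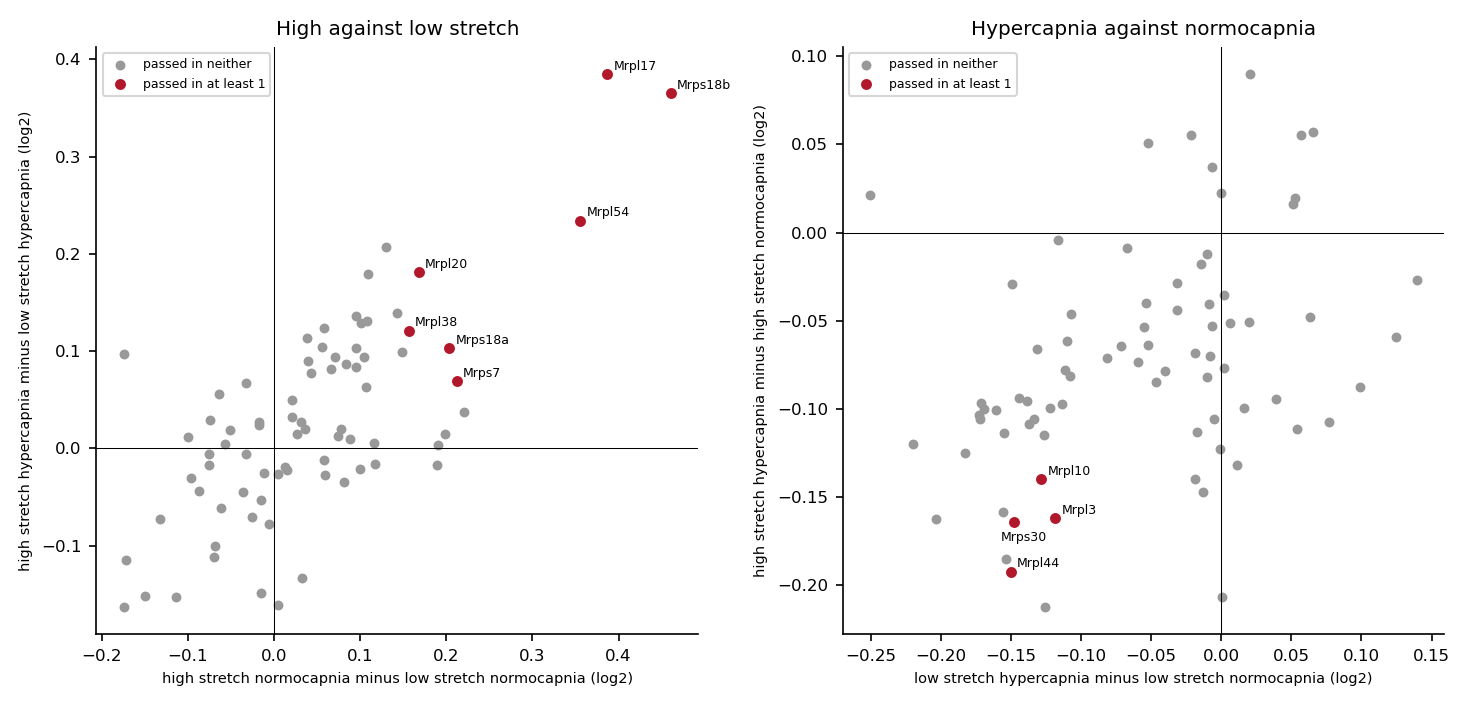
Log2 changes of the 77 members in comparisons that share no array: high against low stretch (left, hypercapnia on the vertical axis and normocapnia on the horizontal) and hypercapnia against normocapnia (right, high stretch on the vertical axis and low stretch on the horizontal). Mrpl17, Mrps18b and Mrpl54 lie apart at the upper right of the left panel, and 53 of 77 members lie below 0 on both axes of the right panel.

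Other genes of mitochondrial translation also fell with CO2 at high stretch, and none of those on the assembly, translation factor and tRNA synthetase lists rose. Of 27 assembly factors 5 fell and none rose in high stretch hypercapnia against high stretch normocapnia, with Noa1, a GTPase needed for mitochondrial translation (-0.43, adjusted p = 0.000208), and Fastkd2, an RNA-binding factor of large subunit assembly (-0.41, adjusted p = 7.33e-05), in front. Of 18 translation factors Mrrf (-0.34, adjusted p = 0.000854), Lrpprc, which stabilises mitochondrial messenger RNAs (-0.19, adjusted p = 0.0158), and the elongation factor Gfm1 (-0.16, adjusted p = 0.0283) fell. Of 16 tRNA synthetases Ears2 (-0.22, adjusted p = 0.00782), Mars2 (-0.19, adjusted p = 0.0106), Yars2 (-0.21, adjusted p = 0.0239) and Cars2 (-0.16, adjusted p = 0.0304) fell and none rose.

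Among the 17 regulators Tfb2m, a factor of mitochondrial transcription (-0.24, adjusted p = 0.0111), and Myc (-0.41, adjusted p = 0.0284) fell with CO2 at high stretch, and Ppargc1a, the coactivator PGC-1 alpha, rose (0.38, adjusted p = 0.0187). The 34 nucleolar factors gave 25 falls and no rise, with a median of -0.27, and among them Rrp12 fell by 0.43 on the log2 scale (adjusted p = 0.000211). The 70 respiratory chain subunits gave no call, with a median of -0.01, and the 55 cytosolic ribosomal proteins 1 fall, Rpl12 (-0.34, adjusted p = 0.0154), with a median of 0.00. No neutrophil, B cell, endothelial or cardiac muscle marker passed in this comparison, while 2 of 10 alveolar type 2 markers fell. By direction alone all 12 cardiac muscle markers were higher in high stretch hypercapnia (median 0.17) and 1 of 9 B cell markers was (median -0.13). The summed cardiac signal ran from 12.80 to 13.41 in high stretch hypercapnia and from 12.39 to 13.39 in high stretch normocapnia, and the summed B cell signal from 10.01 to 10.55 and from 10.21 to 10.73 in the same groups. The summed type 2 signal ran from 15.85 to 15.99 in high stretch hypercapnia and from 15.92 to 16.03 in high stretch normocapnia. The part of these markers in the result was not tested.

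The members moved together from animal to animal, and with the spread of the array. After the group means were taken out, the median correlation between 2 members over the 35 arrays was 0.37 (2926 pairs), and 60 of 77 members correlated above 0.5 with the mean of the others. The same deviations correlated with the array spread at a median of 0.56 over the members, positive in 71 of 77, and of -0.00353 over all genes. The spread is taken over the same signals, so it is tied to the level of bright genes. Of the 77 members 68 lay above the median level of all genes, so the value over all genes is no comparison at like level. Neither this correlation nor that between members was set against genes of like level. The arrays are shared by all members in these values.

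Averaged over the 77 genes, the signal was 8.28 ± 0.08 in high stretch hypercapnia and 8.36 ± 0.06 in high stretch normocapnia (SD, n = 10 each), 8.25 ± 0.06 in low stretch hypercapnia, 8.31 ± 0.05 in low stretch normocapnia and 8.31 ± 0.11 in non-ventilated lungs (SD, n = 5 each). The array spread averaged 2.24 ± 0.02 in each high stretch group and 2.22 in each of the other 3. Over the 10 high stretch hypercapnia arrays the member mean correlated with the spread at 0.77 (Spearman 0.71), and at 0.40 without the 2 arrays farthest from the median spread. Over the 10 high stretch normocapnia arrays it correlated at 0.91 (Spearman 0.37), and at -0.26 without 2 arrays, so that this relation rested on those 2. With the array spread as a covariate the median CO2 difference at high stretch was -0.08, as without it, and 10 members fell in place of 4. The spread averaged 2.235 in both high stretch groups, so the covariate could hardly move this median. The share of all genes that passed in either direction was 7.41% with the covariate and 5.56% without it.

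**Figure D4:**
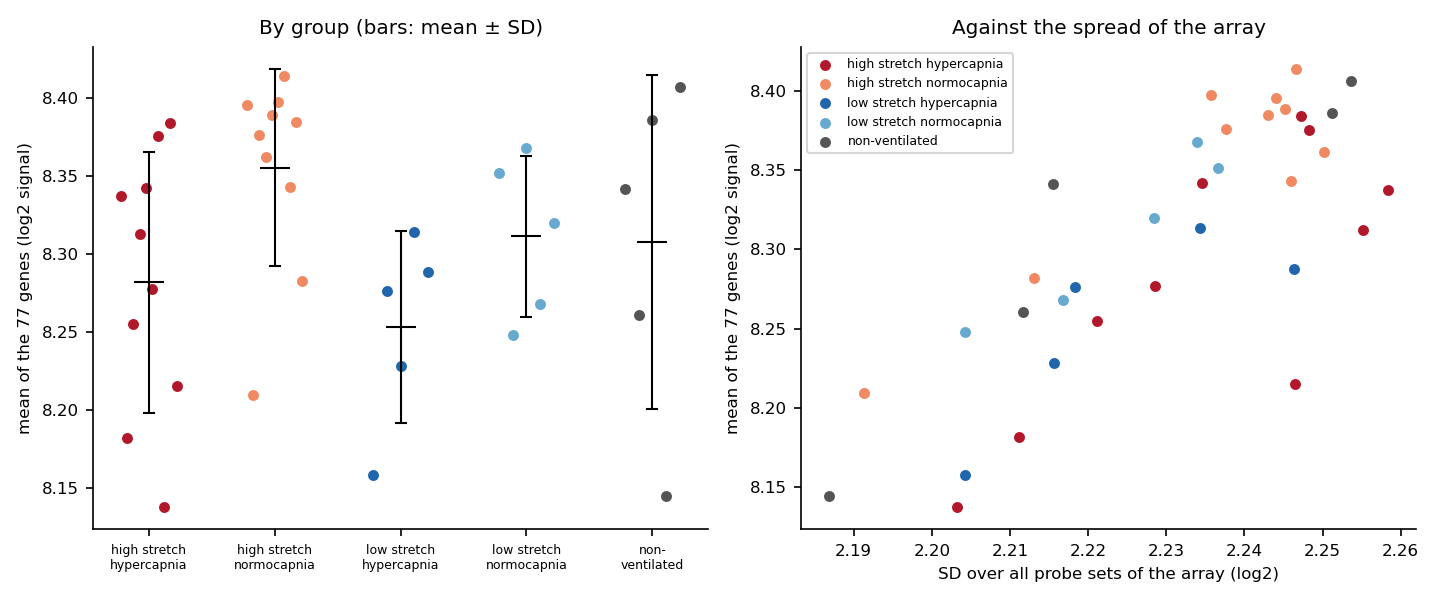
Mean log2 signal of the 77 members on each array, by group with mean ± SD (left) and against the SD of all signals on that array (right). The high stretch hypercapnia arrays run from 8.14 to 8.38 and the high stretch normocapnia arrays from 8.21 to 8.41. In each group the lowest mean lies on the array of lowest spread. High stretch hypercapnia replicate 10 has a low mean (8.21) at a spread of 2.25.

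Few members passed with ventilation at low stretch. In low stretch normocapnia against no ventilation 2 of 77 members rose (2.6%) and none fell, while 6.63% of all genes rose and 5.17% fell. Mrps22, a mitochondria-specific small subunit protein whose human variants cause oxidative phosphorylation deficiency, read 8.35, 8.04, 8.11, 8.12 and 8.22 in low stretch normocapnia and 7.93, 7.86, 8.21, 7.64 and 7.96 in non-ventilated lungs. The groups overlapped, with 1 high non-ventilated array, and the change was 0.25 ± 0.07 (adjusted p = 0.0154). Mrpl20 read 8.11, 8.25, 8.21, 8.24 and 8.12 in low stretch normocapnia and 8.02, 7.86, 8.02, 7.93 and 8.03 in non-ventilated lungs. These groups did not overlap, as was so for 2 members (the other being Mrpl45, adjusted p = 0.0736) and for 4.65% of all genes in the higher direction, and the change was 0.21 ± 0.07 (adjusted p = 0.0258). Neither gene passed in a fit of only these groups, nor without non-ventilated replicate 4.

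Marker genes of several cell types changed in this comparison as well. In low stretch normocapnia against no ventilation 11 of 15 neutrophil markers rose and all 9 B cell markers and 6 of 10 endothelial markers fell. The summed neutrophil signal ran from 14.01 to 14.76 in low stretch normocapnia and from 12.10 to 13.39 in non-ventilated lungs, and the summed B cell signal from 9.78 to 10.36 and from 11.05 to 11.68 in the same groups. The summed endothelial signal ran from 14.28 to 14.42 and from 14.59 to 14.70 in these groups. Their part in the results on Mrps22 and Mrpl20 was not tested.

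Set against non-ventilated lungs, the high stretch groups differed in a larger number of members, in both directions. In high stretch hypercapnia 11 members rose and 14 fell (32.5%), while 33.8% of all genes passed, 16.3% as rises and 17.6% as falls. In high stretch normocapnia 18 rose and 7 fell (32.5%), while 36.3% of all genes passed, 17.4% as rises and 18.9% as falls. Both comparisons share the 5 non-ventilated arrays. The groups did not overlap for 4 rises and 4 falls in each, against 7.26% and 5.98% of all genes in hypercapnia and 8.38% and 7.91% in normocapnia. Neutrophil markers rose (11 of 15) and all 9 B cell markers fell in both. Of 10 endothelial markers 6 fell in high stretch hypercapnia and 7 in high stretch normocapnia, and of 10 macrophage markers 5 and 4 rose in the same order. Of 10 alveolar type 2 markers 5 fell and 1 rose in each, and 4 of 8 alveolar type 1 markers fell in each. The summed type 2 signal ran from 15.85 to 15.99 in high stretch hypercapnia, from 15.92 to 16.03 in high stretch normocapnia and from 15.99 to 16.07 in non-ventilated lungs. Of 12 cardiac muscle markers 2 fell in hypercapnia and 4 in normocapnia. The part of these markers in the results was not tested. In hypercapnia the replicate number as a block left 7 rises and 9 falls, and leaving out non-ventilated replicate 4 left 6 rises.

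Mrps18b, Mrpl17 and Mrpl20 rose against no ventilation in both high stretch groups, without overlap in either. Mrps18b changed by 0.51 ± 0.07 in high stretch hypercapnia (adjusted p = 9.18e-07) and by 0.62 ± 0.07 in high stretch normocapnia (adjusted p = 1.88e-08), Mrpl17 by 0.41 ± 0.05 and 0.42 ± 0.05 in the same order of groups, and Mrpl20 by 0.34 ± 0.06 and 0.38 ± 0.06. Mrpl33, the homologue of a small bacterial protein, averaged 8.27 ± 0.11 in high stretch hypercapnia, 8.22 ± 0.15 in high stretch normocapnia (SD, n = 10 each) and 7.85 ± 0.33 in non-ventilated lungs (SD, n = 5), where 1 array lay at 7.34 and another at 8.22. Mrpl45, related to the import motor protein Tim44 and placed where the ribosome meets the inner membrane, averaged 8.03 ± 0.14 in high stretch hypercapnia, 8.18 ± 0.15 in high stretch normocapnia and 7.84 ± 0.16 in non-ventilated lungs. It changed by 0.19 ± 0.07 (adjusted p = 0.0324) and 0.34 ± 0.07 (adjusted p = 0.000214) in the same order. Mrpl54, Mrps22, Mrps7 and Mrpl52 rose in both as well, by 0.16 to 0.37.

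Several of the smaller rises against no ventilation were not stable. Mrps23, a mitochondria-specific small subunit protein, rose in high stretch hypercapnia (0.16 ± 0.06, adjusted p = 0.0464). In that comparison Mrps22, Mrpl45, Mrps7 and Mrps23 lost their calls in 3, 7, 10 and 13 of 25 other fits, the last 3 of them with the replicate number as a block too. Mrpl32, whose maturation depends on the m-AAA protease, rose in high stretch normocapnia (0.28 ± 0.09, adjusted p = 0.00944), as did Mrpl19, the homologue of bacterial L19 (0.25 ± 0.08, adjusted p = 0.0156). Neither passed without non-ventilated replicate 4, and Mrpl19 did not with the block.

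The falls against no ventilation were led by Mrps35, a mitochondria-specific protein of the small subunit. It ran from 6.75 to 7.34 (median 7.24) in high stretch hypercapnia and from 7.03 to 7.32 (median 7.26) in high stretch normocapnia, and read 7.76, 7.52, 7.82, 7.39 and 7.63 in non-ventilated lungs. Neither high stretch group overlapped with the non-ventilated lungs. The change was -0.48 ± 0.08 in high stretch hypercapnia (adjusted p = 1.06e-05, 1.40-fold lower) and -0.41 ± 0.08 in high stretch normocapnia (adjusted p = 8.72e-05, 1.33-fold lower). The low stretch groups lay between, at 7.31 ± 0.11 in hypercapnia and 7.39 ± 0.08 in normocapnia (SD, n = 5 each).

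Mrpl18, the homologue of a protein that holds the 5S ribosomal RNA in bacteria, averaged 9.66 ± 0.14 in high stretch hypercapnia, 9.73 ± 0.06 in high stretch normocapnia and 10.00 ± 0.06 in non-ventilated lungs. It fell by 0.34 ± 0.06 (log2, adjusted p = 1.23e-05) and by 0.27 ± 0.06 (adjusted p = 0.000332) in the same order, and the groups did not overlap. Its neighbour on the other strand, Tcp1, a subunit of the cytosolic chaperonin, rose by 0.13 ± 0.05 (adjusted p = 0.0432) and by 0.24 ± 0.05 (adjusted p = 0.000304). Mrpl39 fell by 0.34 ± 0.06 in high stretch hypercapnia (adjusted p = 6.73e-06) and by 0.24 ± 0.06 in high stretch normocapnia (adjusted p = 0.000571), also without overlap. Mrpl24 fell without overlap by 0.19 ± 0.05 (adjusted p = 0.000952) and 0.12 ± 0.05 (adjusted p = 0.0367), and Mrpl36 and Mrpl14 fell with overlap by 0.19 to 0.30. Mrpl44, Mrpl49 and Mrpl40 fell in high stretch hypercapnia (-0.30, -0.34 and -0.26), and in high stretch normocapnia they did not pass. Mrps16, the homologue of bacterial S16 (-0.21 ± 0.08, adjusted p = 0.032), and Mrpl27 (-0.20 ± 0.08, adjusted p = 0.0451) fell too in high stretch hypercapnia, and in high stretch normocapnia Mrps36 (-0.22 ± 0.09, adjusted p = 0.0441).

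The smaller falls depended on the fit. Mrpl14, Mrps16 and Mrpl27 in high stretch hypercapnia lost their calls in 6, 9 and 13 of 25 other fits, each of them also with the replicate number as a block. Mrpl14, Mrpl36 and Mrpl24 in high stretch normocapnia lost theirs in 1, 6 and 8 of 25, Mrpl24 also with the block, and Mrps36 in 11 of 24.

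Of the 68 members with a window in the table, 27 have a neighbour that starts within 1000 bases and is read in the opposite direction, and 25 of these neighbours were measured. In high stretch normocapnia against low stretch normocapnia Mrps18b was the member that passed together with its neighbour. Mrps7 rose while its neighbour Gga3, an adaptor of vesicle sorting, differed by -0.02 ± 0.05 (adjusted p = 0.836). The pairs were annotated on GRCm38.p6, and the files do not name the build of the probe sets.

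**Figure D5:**
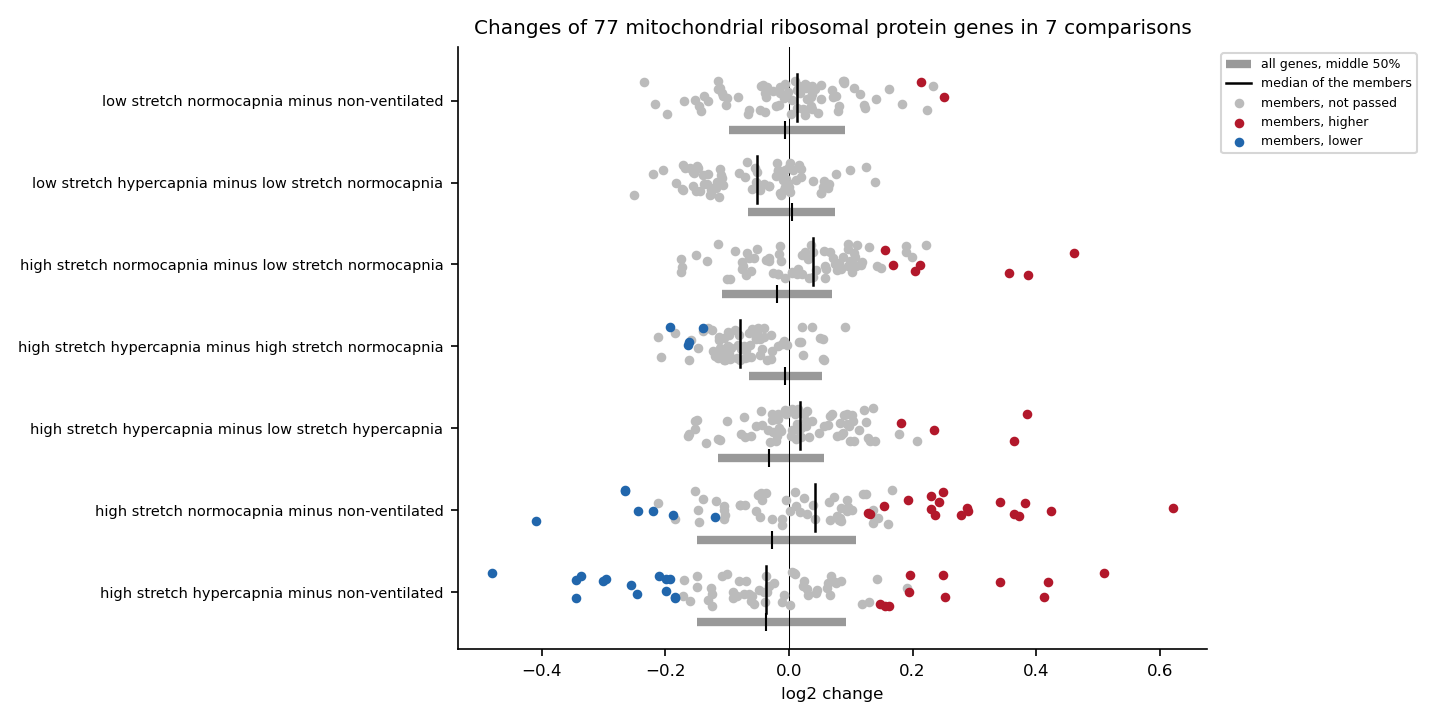
Log2 changes of the 77 members (points) in 7 comparisons, coloured where they passed, with the members' median (long line) and the middle 50% and median of all 19938 genes (grey bar and short line). The members' medians run from -0.08 for high stretch hypercapnia against high stretch normocapnia to 0.04 for high stretch normocapnia against non-ventilated lungs.

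In the main comparisons the changes of the members were small and well bounded. The 95% intervals lay within 0.5 on the log2 scale for 76 of 77 members in low stretch normocapnia against no ventilation and in low stretch hypercapnia against low stretch normocapnia, and for 75 in each comparison of high with low stretch. Against no ventilation this held for 71 members in each high stretch group. Of the 8 members with a further probe set, some read with opposite signs on the brighter and the dimmer one. Mrpl47 differed in high stretch hypercapnia against high stretch normocapnia by -0.21 ± 0.08 on the brighter probe set and by 0.01 ± 0.09 on the dimmer. Mrpl51 differed in high stretch hypercapnia against no ventilation by 0.07 and -0.07, and in high stretch normocapnia against no ventilation Mrpl27 differed by -0.08 and 0.04. None of these passed on either probe set. The fall of Mrpl27 in high stretch hypercapnia against no ventilation was lost when its probe sets were averaged. Mrps33 differed in that comparison by -0.19 and -0.20.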

How the data were processed

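RNA of 35 lungs was hybridised to 1 Affymetrix array each. The deposited table holds log2 signals made by the authors with RMA, which corrects background, quantile-normalises and summarises probes. Per the submitters' processing notes, Expression Console of Affymetrix and Partek were used as well, with no version given. The labels give no batch, date or litter, and do not say that replicate numbers pair animals. Same-numbered arrays of different groups deviated together at a median correlation of 0.02 (55 pairs, from -0.34 to 0.38). For arrays of different number and group this was -0.01 (420 pairs, from -0.50 to 0.52). Each array is a separate animal per the labels, and the number of arrays limits the precision.

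Of 35557 probe sets 21789 carried 1 symbol in the platform annotation. The brightest per gene was kept, which gave 19938 genes with no filter on level. A mean per group was fitted to the 35 arrays by lmFit and eBayes of limma 3.58.1 (R 4.3.3), and 8 contrasts were taken, two-sided, with Benjamini-Hochberg adjustment per contrast. The procedure was tested on simulated data. The members, lists, subunit classes and tests were chosen with earlier results of these data known. The text names the 10 largest rises and 10 largest falls that passed per contrast, or the 5 smallest p where none did, the 3 brightest and 3 dimmest members, and up to 4 genes per list. Alternatives were only the compared groups, the replicate block, eBayes with trend and robust options, array weights, a second quantile normalization, arrays centred on the median, genes above the median level, the mean of a gene's probe sets, a covariate for array spread and leaving out 1 array at a time. Leaving out, in every group, the array of lowest spread was added after seeing the data. Promoter windows come from RefSeq.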

Additional observations from a re-analysis of the deposited data

Results flagged for a closer look

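Over the named members and the mean over all members, 165 groups were tested for a value that stands apart from the rest of its group. In 5 a value did. Chance flags about 1 in 20 such groups. In high stretch normocapnia replicate 2 Mrpl24 read 9.84 and Mrpl49 read 8.19, each the lowest of the group, with the nearest array at 9.97 for Mrpl24 and 8.50 for Mrpl49. That array had a spread of 2.19. In high stretch normocapnia replicate 4 Mrpl39 read 10.05, the highest of the group, with the nearest array at 9.95. In low stretch hypercapnia replicate 1 Mrpl3 read 8.42, the lowest, with the nearest array at 8.61. In low stretch normocapnia replicate 3 Mrpl10 read 9.21, the highest, with the nearest array at 9.06.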

How the results depend on the processing

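The calls of Mrps18b and Mrpl17 for high against low stretch held in all 25 other fits in normocapnia and in hypercapnia, while the 4 falls with CO2 at high stretch did not, and no named member changed direction. Leaving out 1 array gave 0 to 3 rises and 0 to 2 falls in low stretch normocapnia against no ventilation, 4 to 10 rises and 0 to 1 falls in high stretch normocapnia against low stretch normocapnia, and 0 to 6 falls in high stretch hypercapnia against high stretch normocapnia. It gave 2 to 4 rises and 0 to 1 falls in high stretch hypercapnia against low stretch hypercapnia, 12 to 22 rises and 4 to 9 falls in high stretch normocapnia against no ventilation, and 6 to 13 rises and 9 to 17 falls in high stretch hypercapnia against no ventilation. For every fit without 1 array in this text, the share of all genes that passed was not computed. Whether the members lost or gained calls more often than other genes in those fits was therefore not tested.

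In low stretch normocapnia against no ventilation there were 0 rises in a fit of only the groups compared, 1 fall with array weights, 3 falls after a second quantile normalization, 4 rises and 1 fall with the array spread as a covariate, and 1 rise and 3 falls when each group's lowest-spread array was left out. Removing non-ventilated replicate 2 or low stretch normocapnia replicate 1, 2 or 4 left 1 rise. Removing non-ventilated replicate 4 gave 0 rises and 2 falls, and removing non-ventilated replicate 3 gave 1 fall. Of all genes 11.8% passed in this comparison in the main fit. That share was 6.95% with only the groups compared, 12.9% with array weights and 13.5% after the quantile normalization. It was 14.1% with the spread covariate and 10.5% without the lowest-spread arrays. In high stretch normocapnia against low stretch normocapnia there were 2 falls with only the groups compared, 11 rises and 1 fall with array weights, 11 rises with arrays centred on their median, 1 fall after the quantile normalization, 4 falls with the spread covariate and 1 fall without the lowest-spread arrays. Removing high stretch normocapnia replicate 9 gave 1 fall. Of all genes 18.3% passed in this comparison in the main fit. That share was 20% with only the groups compared, 25.2% with array weights and 18.3% with arrays centred. It was 19.4% after the quantile normalization, 21.2% with the spread covariate and 18.3% without the lowest-spread arrays.

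In high stretch hypercapnia against high stretch normocapnia there were 8 falls with array weights and 10 for the spread covariate. There were 7 when dim genes (at or below the median level) were left out, a fit that held 68 members. Of all genes tested, 5.56% passed in either direction in the main fit. That share was 10.3% with array weights, 7.41% for the spread covariate and 13.2% without the dim genes. Falls dropped to 0 without high stretch normocapnia replicate 4, 6, 7 or 9 or high stretch hypercapnia replicate 2, 3, 6, 8 or 10, to 1 without high stretch normocapnia replicate 1, 3, 5 or 8, and to 2 without high stretch hypercapnia replicate 1 or high stretch normocapnia replicate 10. In high stretch hypercapnia against low stretch hypercapnia there were 2 falls after the quantile normalization, 1 without the dim genes and 3 for the spread covariate. There was 1 fall without low stretch hypercapnia replicate 1, and there were 2 rises without low stretch hypercapnia replicate 3. Of all genes tested, 10.1% passed in the main fit and 11% after the quantile normalization. That share was 20.3% without the dim genes and 11.6% for the spread covariate.

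Against no ventilation, high stretch normocapnia had 4 falls with only the groups compared, with arrays centred on their median or without non-ventilated replicate 5. It had 12 after the quantile normalization and 13 with the spread covariate. Of all genes 36.3% passed there in the main fit, 35.3% with only the groups compared and 36.4% with arrays centred. That share was 37.8% after the quantile normalization and 39.3% with the spread covariate. High stretch hypercapnia had 7 rises and 9 falls with only the groups compared, 9 falls with arrays centred and 6 rises without the lowest-spread arrays. It had 7 rises without non-ventilated replicate 2, and 9 falls without high stretch hypercapnia replicate 8 or 10. With the replicate number as a block it had 7 rises and 9 falls. Of all genes 33.8% passed there in the main fit. That share was 29.1% with only the groups compared, 33.4% with arrays centred, 30.9% without the lowest-spread arrays and 28.3% with the block. For high against low stretch the block gave 2626 calls over all genes in place of 3646 in normocapnia and 1269 in place of 2017 in hypercapnia. The labels do not say that the numbers pair animals, so the block is a further fit and was not preferred. Replicate numbers above 5 occur only in the high stretch groups. With the block, those arrays bear on comparisons with other groups only through the difference between the 2 high stretch groups. For CO2 at high stretch the block gave 1128 calls over all genes in place of 1109. The causes of these shifts were not tested.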
